A study of Mus musculus with 2 samples.

Results

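Rab proteins are the largest family of small GTPases, and each marks particular membranes inside the cell. A Rab is active with GTP bound, when it recruits effector proteins that move, tether and fuse vesicles. Exchange factors load the GTP, GTPase activating proteins speed its hydrolysis, and a lipid added by geranylgeranyl transferase anchors the protein in the membrane. Granulocytes and monocytes depend on these routes for granule release, for phagocytosis and for the delivery of vesicles to lysosomes.

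The genes described here are those whose name on the array begins with Rab and a number, or with Rabgap, Rabgef, Rabif, Rabac, Rabep or Rabggt. The rule found 76 genes on 151 of 41089 probes, and 73 of them counted because their signal was well above background on at least 1 array, out of 15429 named genes that passed the same condition. Of the 73, 67 were above background in granulocytes and 72 in monocytes. They comprised 53 Rab GTPases and 20 regulators and effectors. At the edge of the condition, Rab27b counted with a signal of 10.45 intensity units in granulocytes (2.64 in monocytes). Rab30 counted with 2.26 in granulocytes and 12.6 in monocytes, and Rab3b with 7.09 in granulocytes and 13.8 in monocytes. Rab39b (1.92 in granulocytes and 1.92 in monocytes), Rab3c (2.52 in granulocytes and 2.63 in monocytes by its brighter probe) and Rab40b (2.18 in granulocytes and 2.27 in monocytes) did not count.

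The study sorted granulocytes and monocytes from the bone marrow of mice, and hybridised 1 one-colour array per cell type. Both samples came from wild-type male C57BL/6 animals, with no treatment named. The sources used here name neither the sort's surface markers nor the mice's age and number. Per the file headers, the arrays shared 1 slide and 1 scan. Values are log2 of the processed signal relative to the 75th percentile of the array, called the level here, and differences are granulocyte minus monocyte, so that a positive difference means a higher level in granulocytes. With 1 array per cell type there is no replicate check for any difference, no test was made, and precision is limited by the number of arrays. Genes were counted by size alone: a gene past 4-fold on the granulocyte side had a level 4 times or more that in monocytes, and the monocyte side is the reverse. A gene that only 1 array measured above background has a lower bound for its fold, written "at least". The bound holds for the processed signal with the 75th percentile, not under other settings. The sorted samples are bulk RNA, so fewer cells of a type and less RNA per cell cannot be told apart.

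The labels were set against marker genes. All 10 granulocyte markers were at least 2-fold higher in granulocytes (Cxcr2 by 8.38 and Mmp9 by 9.65 on the log2 scale), with a summed signal of 3873 times the 75th percentile in granulocytes and 1048 in monocytes, and all 10 monocyte markers were at least 2-fold lower in granulocytes (Ccr2 by -7.67 and Fn1 by -8.51), with sums of 15.7 in granulocytes and 583 in monocytes. Without scaling, the granulocyte markers S100a9 (0.19), Camp (0.65) and S100a8 (0.82) were under 2-fold. Markers of other cells were above background on both arrays wherever they had a value. The 6 basophil and mast cell genes summed to 329 in granulocytes and 10.5 in monocytes, nearly all of it from Hdc (a difference of 5.03 on the log2 scale), since the other 5 summed to 0.98 in granulocytes and 0.40 in monocytes. The sums of 6 platelet genes were 7.95 in granulocytes and 1.45 in monocytes. For 4 erythroid genes the sums were 8.60 in granulocytes and 2.72 in monocytes, for 5 B cell genes 4.92 in granulocytes and 4.81 in monocytes, and for 6 T and NK cell genes 6.32 in granulocytes and 17.3 in monocytes. Their part in the differences below was not tested.

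With the 75th percentile as the scale, more Rab genes had the higher level in granulocytes than in monocytes, a split that turned round at 4-fold without scaling. Past 4-fold on the granulocyte side were 11 of the 73 genes (15.1%), beside 1323 of all 15429 genes, which is 8.57%. Past 4-fold on the monocyte side were 2 genes (2.74%), beside 1614 of all genes, which is 10.5%. At 2-fold, 36 genes (49.3%) lay on the granulocyte side, with 29.0% for all genes, and 9 (12.3%) on the monocyte side, with 21.0% for all genes. The median difference was 0.99 on the log2 scale for the Rab genes and 0.40 for all genes. Over genes measured on both arrays the medians were 1.06 for 66 Rab genes and 0.46 for all 14020. Of those 66, 51 lay above 0 and 15 below, and 26 differed by less than 2-fold. With bounds included, 52 of the 73 Rab genes lay above 0 and 19 below, beside 9173 above and 5888 below of all 15429 genes.

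The scale matters because the 75th percentile was 339.4 intensity units in granulocytes and 620.9 in monocytes, so that scaling adds 0.87 to every log2 difference. Without scaling, 5 Rab genes were past 4-fold on the granulocyte side (Rab37, Rab23, Rab20, Rab11fip1 and Rab33a) and 9 on the monocyte side. Of all 15429 genes, 577 were then past it on the granulocyte side and 2997 on the monocyte side. Scaled by 8 spike-in controls, 8 Rab genes were past it on the granulocyte side and 6 on the monocyte side, beside 802 and 2333 of all genes. After quantile normalisation 11 Rab genes were past it on the granulocyte side and 4 on the monocyte side, beside 1022 and 1852 of all genes. The median of the Rab genes was 0.12 without scaling, 0.50 by spike-in controls and 0.64 after quantile normalisation, against -0.43, -0.06 and 0.17 for all genes. The distance between the 2 medians, 0.60 with the 75th percentile, ranged from 0.33 to 0.64 over the other settings.

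**Figure D1:**
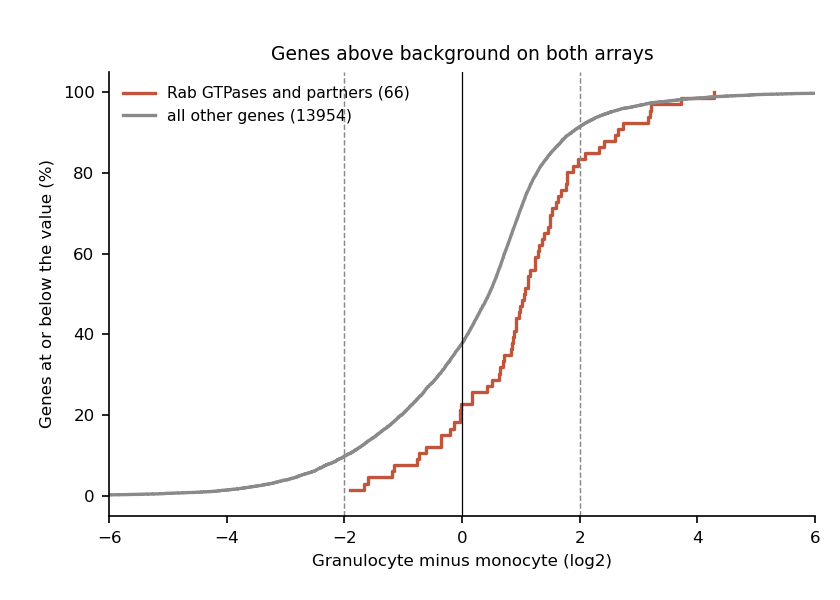
Cumulative share of genes (%) against the granulocyte minus monocyte difference (log2), for the 66 Rab genes and the 13954 other genes that were above background on both arrays. The curve of the Rab genes lies to the right of the other genes up to a difference of about 3, and dashed lines mark 4-fold. All differences include the shift of 0.87 from scaling, without which both curves move left together.

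The 60-base probes that read the leading genes are shown so that each measurement can be traced to the stretch of transcript it came from. Positions are those of the array files in the mouse build mm8. The Rab37 probe lies at chr11:114978066-114978125 (+ strand), the Rab23 probe at chr1:33685160-33685219 (+), the Rab20 probe at chr8:11454155-11454214 (-), the Rab6 probe at chr7:100515214-100515273 (+), the Rab27a probe at chr9:72893993-72894052 (+) and the Rab3d probe at chr9:21659692-21659751 (-). Exon and UTR annotation of these positions was not used here. No base is singled out, so all letters are in lower case.
Rab37: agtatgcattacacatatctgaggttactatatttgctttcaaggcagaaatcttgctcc
Rab23: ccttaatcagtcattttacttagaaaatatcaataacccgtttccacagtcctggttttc
Rab20: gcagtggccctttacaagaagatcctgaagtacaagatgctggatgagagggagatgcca
Rab6: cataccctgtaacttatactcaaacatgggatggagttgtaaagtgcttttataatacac
Rab27a: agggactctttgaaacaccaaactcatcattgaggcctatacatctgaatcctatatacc
Rab3d: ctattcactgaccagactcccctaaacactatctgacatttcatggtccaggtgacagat

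Among the Rabs of secretory vesicles and granules, Rab37, Rab27a and Rab3d were past 4-fold on the granulocyte side and Rab3a was higher in monocytes. Of 7 genes of this group that counted, 3 passed 4-fold on the granulocyte side, beside 8.57% of all genes. On the monocyte side 0 passed it, beside 10.5% of all genes, and the group's median was 1.02. That median is the lower bound of Rab27b, and it was 2.60 over the 5 genes above background on both arrays and 0.14 without scaling. Without scaling, Rab27a (1.78) and Rab3d (1.73) were under 4-fold. Rab37, a Rab of mast cell secretory granules, had a level of 1.66 in granulocytes and -2.63 in monocytes, from signals of 1070.1 and 100.5 intensity units. Its difference of 4.28, or 19.5-fold, was the widest of all 66 Rab genes measured on both arrays, and its other probe gave 3.82.

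Rab27a docks granules at the plasma membrane and is the gene lost in ashen mice and in human Griscelli syndrome. Its level was 4.31 in granulocytes and 1.66 in monocytes, a difference of 2.65 (6.30-fold), with 2.16 by its other probe. Rab27b, its closest relative, was detected only on the granulocyte array, at least 2.02-fold above monocytes. Rab3d, found on the granules of exocrine and mast cells, had a level of 5.46 in granulocytes and 2.86 in monocytes, a difference of 2.60 (6.06-fold), with 3.27 by its other probe. Rab3a, best known from synaptic vesicles, had -2.27 in granulocytes and -1.11 in monocytes, which made it 2.24-fold higher in monocytes, but its difference was -0.52, under 2-fold, after normexp background correction. Rab26, which acts in the maturation of secretory granules in exocrine cells, gave 0.92. Rab3b was dim on both arrays and has no fold. Of the 6 basophil and mast cell markers given above, 5 were also past 2-fold on the granulocyte side and Ms4a2 was not (-0.07). Without scaling, Mcpt8 (0.13), Fcer1a (0.32) and Gata2 (0.88) were under 2-fold as well. The part of these markers in the values of Rab37, Rab27a and Rab3d was not tested.

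All 9 Rabs of early endosomes and uptake had a higher level in granulocytes with the 75th percentile, with a range of 0.42 to 3.22 and a median of 1.29, although Rab22a (0.42) and Rab5a (0.63) lay below 0 without scaling, and Rab22a also by spike-in controls. On the same scale 9173 of all 15429 genes lay above 0. The group was chosen with earlier results of these data known, so that 9 of 9 is a description only. Its median was 0.42 without scaling and 0.80 by spike-in controls. Rab20 and Rab5b were past 4-fold on the granulocyte side, beside 8.57% of all genes, and 6 of the 9 were past 2-fold, beside 29.0%. Rab20, which associates with phagosomes in macrophages, had a level of 1.73 in granulocytes and -1.49 in monocytes, a difference of 3.22 (9.31-fold) on its single probe.

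The Rab5 proteins drive the fusion of early endosomes. Rab5b had a level of -1.47 in granulocytes and -3.80 in monocytes, a difference of 2.34 (5.06-fold), with up to 2.78 by its other probes, but 1.47 without scaling and 1.52 after normexp background correction, which here adds an offset of 50 intensity units to every signal. Rab5c had 3.78 in granulocytes and 2.26 in monocytes, a difference of 1.53. Rab5a had 3.55 in granulocytes and 2.92 in monocytes on a probe printed on 10 spots, a difference of 0.63 that became -0.24 without scaling. The 3 isoforms thus stood in the order Rab5b, Rab5c, Rab5a by difference, and no replicate spread exists to say which neighbours differ.

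Rab31, which carries cargo between the trans-Golgi and endosomes and takes part in phagocytosis, had a level of 3.94 in granulocytes and 2.62 in monocytes, a difference of 1.32 (2.49-fold). Rab24, linked to autophagy, gave 1.29 (level 5.38 in granulocytes and 4.09 in monocytes), and Rab21, which binds integrins during endocytosis, gave 1.24 (3.03 in granulocytes and 1.79 in monocytes). Rab17, known from epithelial transcytosis, lay just under 2-fold at 0.99.

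**Figure D2:**
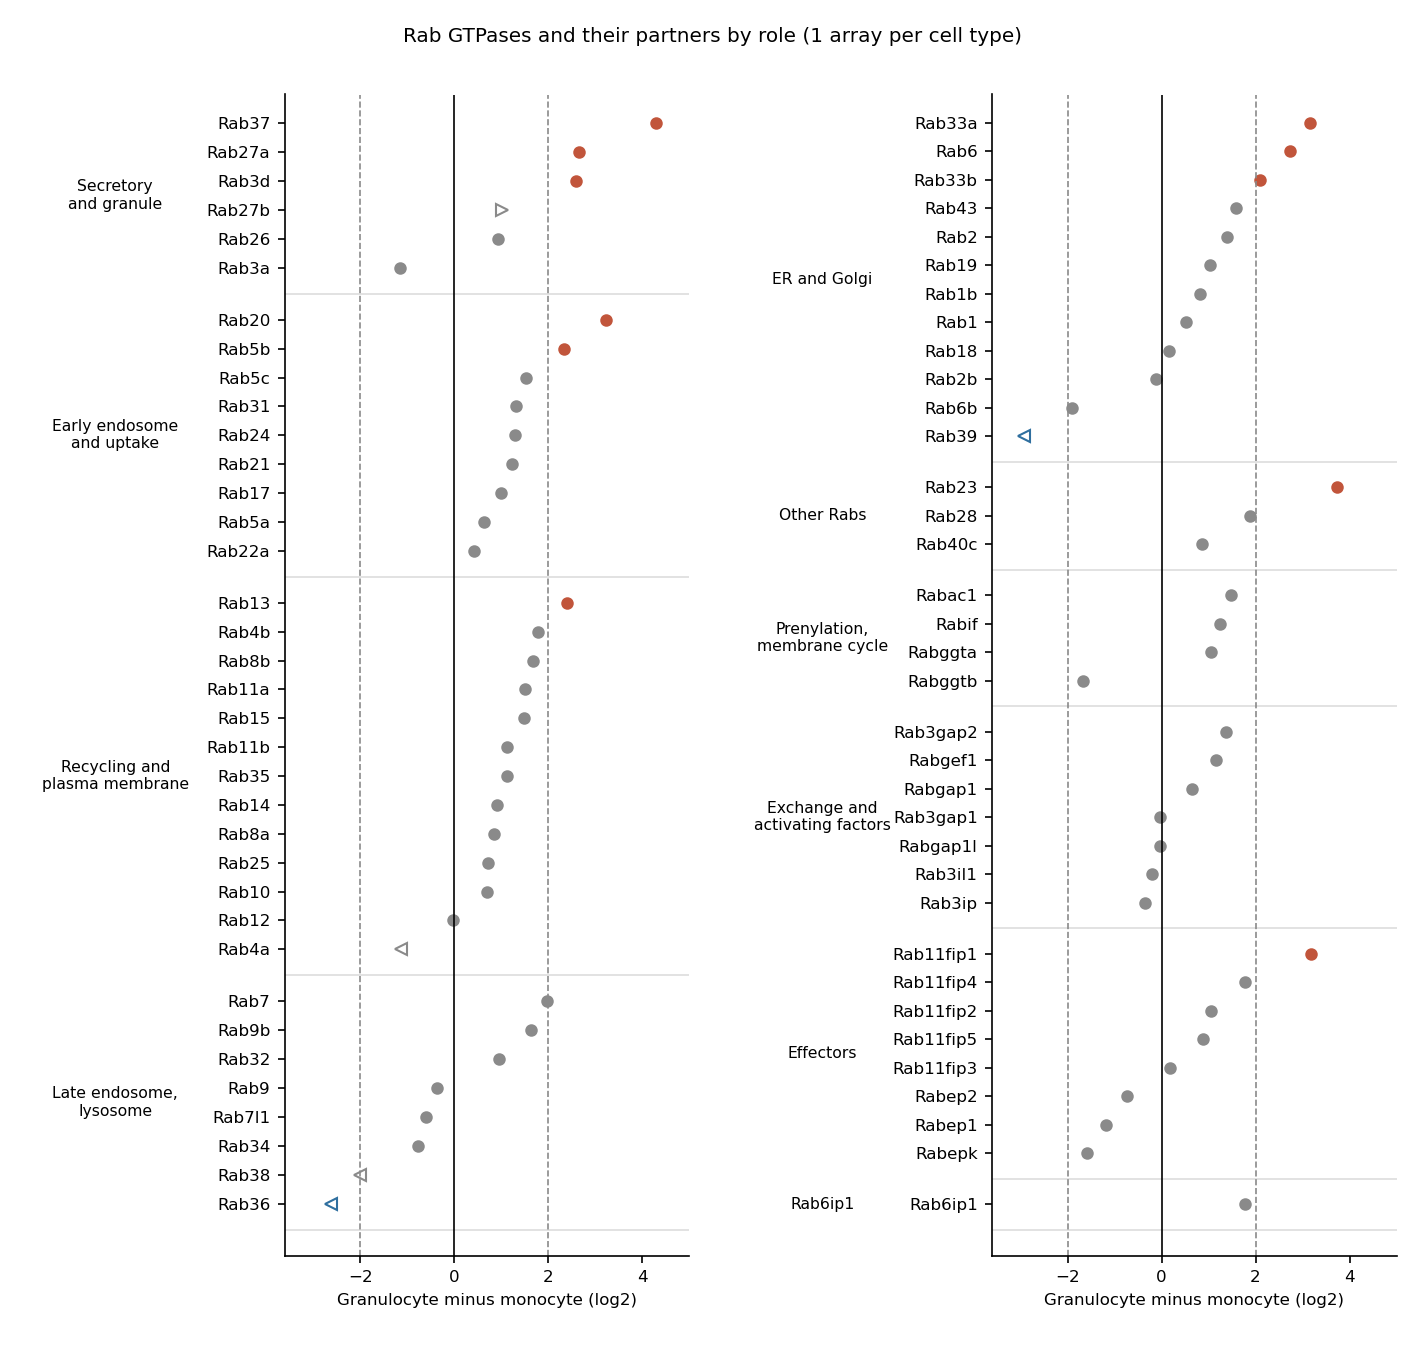
Granulocyte minus monocyte difference (log2) of each Rab gene with a value, grouped by role, with 1 array per cell type. Filled circles were measured on both arrays, open triangles are lower bounds, dashed lines mark 4-fold, and genes past them are red on the granulocyte side and blue on the monocyte side. All 9 early endosome Rabs lie above 0, but without scaling every point moves left by 0.87 and 11 of the circles cross 0, Rab5a and Rab22a among them. Rab3b and Rab30 have no fold and are not drawn. The roles were assigned with earlier results of these data known.

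Among 13 Rabs of recycling endosomes and delivery to the plasma membrane, 1 was past 4-fold on the granulocyte side, beside 8.57% of all genes. Past 2-fold on that side were 7, beside 29.0% of all genes. The median was 1.12, but 0.25 without scaling, 0.63 by spike-in controls and 0.54 after quantile normalisation. Rab13, which regulates tight junctions in epithelia, had the widest difference, with a level of -2.56 in granulocytes and -4.97 in monocytes, or 5.30-fold. Its signals were low, 57.6 intensity units in granulocytes and 19.9 in monocytes, and its other probe was not above background on either array. The difference was under 4-fold without scaling (1.54), by spike-in controls (1.91) and after normexp background correction (1.22). The measured Rab13 probe covers 686 bases of genome with 60 letters (chr3:90309737-90310422, +, mm8).

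Rab11a, the central Rab of recycling endosomes, had a level of 5.01 in granulocytes and 3.51 in monocytes, a difference of 1.50, with 1.46 to 1.69 over 3 probes. Its relative Rab11b gave 1.13 on its chosen probe but 0.01 on another. Rab8b, which acts in delivery to the plasma membrane, gave 1.68 (2.38 in granulocytes and 0.70 in monocytes). Rab15, a regulator of endocytic recycling, gave 1.49 (-1.40 in granulocytes and -2.89 in monocytes), and Rab35, which acts in rapid recycling and at the actin cytoskeleton, gave 1.12 (5.57 in granulocytes and 4.45 in monocytes). Rab14, a Rab of the Golgi and early endosomes that also resides on phagosomes, had 4.25 in granulocytes and 3.34 in monocytes, a difference of 0.91.

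The isoforms of Rab4, which serves fast recycling, lay on opposite sides with the 75th percentile, but not after normexp background correction. Rab4b had a level of 3.19 in granulocytes and 1.39 in monocytes, a difference of 1.79 (3.47-fold). Rab4a was not well above background in granulocytes (6.90 intensity units) and had 38.0 in monocytes, so that it was at least 2.19-fold higher in monocytes, but its difference was 0.15 after normexp background correction. Rab14 and the other 4 genes of the group (Rab8a, Rab10, Rab12 and Rab25) differed by less than 2-fold.

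The 8 Rabs of late endosomes, lysosomes and related organelles were spread on both sides of 0. Their median was -0.49, though it was 0.11 after normexp background correction and 0.30 over the 6 genes above background on both arrays. It was -1.36 without scaling, -0.98 by spike-in controls and -0.81 after quantile normalisation. At 2-fold, 2 lay on the granulocyte side and 2 on the monocyte side, beside 29.0% and 21.0% of all genes. Rab7, the Rab of late endosomes and lysosomes, had a level of 5.58 in granulocytes and 3.61 in monocytes, a difference of 1.98 (3.94-fold) that fell just short of 4-fold, and its other probe gave 1.79. Rab9b gave 1.63 from low signals (23.3 intensity units in granulocytes and 13.8 in monocytes), whereas Rab9, which returns receptors from late endosomes to the Golgi, gave -0.36.

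Rab32 and Rab38 are close relatives that supply melanosomes and other lysosome-related organelles. Rab32 had a level of 5.01 in granulocytes and 4.04 in monocytes, a difference of 0.96. Rab38 was not well above background in granulocytes (6.31 intensity units), had 69.0 in monocytes, and was at least 3.99-fold higher in monocytes, just under the 4-fold size, with a difference of -0.15 after normexp background correction. Rab36, a Golgi and late endosome Rab, had 2.01 intensity units in granulocytes and 106.5 in monocytes and was at least 6.15-fold higher in monocytes. Its other probe was not above background on either array (4.09 in granulocytes and 8.10 in monocytes), so the bound rests on 1 probe, of which 21.7% of the letters are G or C. After normexp background correction the difference of Rab36 was -0.64. Rab34 (-0.76, and 0.36 after normexp background correction), which positions lysosomes, and Rab7l1 (-0.61), now called Rab29, differed by less than 2-fold.

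Both genes past 4-fold on the monocyte side, Rab36 and Rab39, rest on a lower bound from 1 probe each, and these probes are shown for that reason. The Rab36 probe lies at chr10:74497742-74497801 (+) and the Rab39 probe at chr9:53446758-53446817 (-), both in mm8.
Rab36: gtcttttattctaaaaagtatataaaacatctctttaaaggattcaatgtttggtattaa
Rab39: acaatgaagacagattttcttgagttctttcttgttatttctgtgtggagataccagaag

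Of 13 Rabs of the endoplasmic reticulum and Golgi, 3 genes were past 4-fold on the granulocyte side, beside 8.57% of all genes. On the monocyte side 1 was past it, beside 10.5% of all genes. The median was 0.83 (-0.04 without scaling). Rab6, now Rab6a, which runs retrograde transport at the Golgi, had a level of 6.63 in granulocytes and 3.88 in monocytes, a difference of 2.74 (6.70-fold), with 3.02 by its other probe. Its isoform Rab6b, known from neurons, had -4.33 in granulocytes and -2.42 in monocytes and was 3.75-fold higher in monocytes (difference -1.91, and -0.32 after normexp background correction). Rab6ip1, a protein that binds Rab6 and is now called Dennd5a, gave 1.78 (4.71 in granulocytes and 2.93 in monocytes).

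Rab33a had a level of 0.53 in granulocytes and -2.64 in monocytes, a difference of 3.16 (8.96-fold). Rab33b, a Golgi Rab that binds the autophagy protein Atg16l1, had 0.53 in granulocytes and -1.57 in monocytes, a difference of 2.10 (4.28-fold), the closest to the 4-fold size from above, and 1.83 after normexp background correction. Rab39, which in human macrophages acts on phagosomes, was not well above background in granulocytes (8.69 intensity units), had 131.9 in monocytes, which gives at least 7.62-fold on the monocyte side. After normexp background correction its difference was -0.70. Rab2, which acts between the endoplasmic reticulum and Golgi and is now called Rab2a, gave 1.40 (5.99 in granulocytes and 4.59 in monocytes), with 1.28 by its other probe. Rab43, a Golgi Rab, gave 1.59 (0.49 in granulocytes and -1.11 in monocytes), and Rab19 gave 1.03 (1.80 in granulocytes and 0.77 in monocytes). Rab1, Rab1b, Rab2b and Rab18 differed by less than 2-fold, and Rab30 has no fold.

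Rab23 stood outside these groups. It is a Rab that restrains Hedgehog signalling in the mouse embryo. Its level was 2.54 in granulocytes and -1.20 in monocytes, a difference of 3.73 (13.3-fold), with a range of 3.65 to 3.97 over 3 probes. Rab28, known from cilia and photoreceptors, gave 1.89 (3.12 in granulocytes and 1.24 in monocytes), and 2.88 on its highest probe. Rab40c, which recruits a ubiquitin ligase, gave 0.86, which became -0.01 without scaling.

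**Figure D3:**
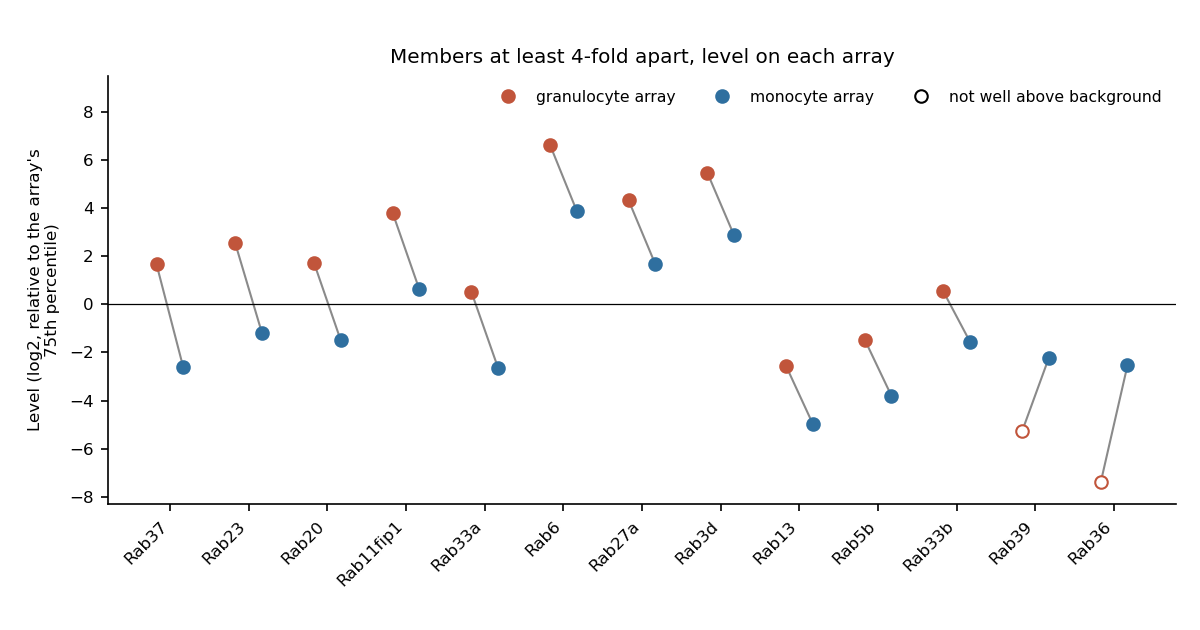
Level of each Rab gene past the 4-fold size on the granulocyte array (red) and the monocyte array (blue), in log2 relative to the 75th percentile of the array, with 1 array per cell type. Open circles were not well above background. The 11 genes from Rab37 to Rab33b were above background on both arrays, while Rab39 and Rab36 were above background in monocytes only. Levels are to be compared within a gene, not between genes.

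Close relatives often had unequal differences. In 17 groups of isoforms or near relatives, the differences lay at least 2-fold apart within 11 groups and on opposite sides of 0 within 7. After normexp background correction, 8 groups lay at least 2-fold apart. Among those on opposite sides, Rabgap1l (-0.04) and Rab2b (-0.13) lay near 0. No share was computed for groups of other genes, so these counts have nothing to be read beside. Rab27a and Rab27b are among the 11 with a gap of 1.64, which could be smaller because Rab27b has a lower bound. Rab7 (1.98) and Rab7b (-5.06) are not among the 17 groups, because the naming rule leaves Rab7b out, and they lay farther apart than any of them. Within the 17 groups, the widest gap was 4.65 between Rab6 (2.74) and Rab6b (-1.91). It was followed by 3.76 between Rab3d (2.60) and Rab3a (-1.16). Rab32 and Rab38 lay 2.96 apart and Rab4b and Rab4a 2.93 apart, both with a lower bound for the dim member. After normexp background correction the gap was 2.92 for Rab6 and Rab6b and 3.01 for Rab3d and Rab3a, so that their order turned. Rab9b and Rab9 lay 1.996 apart, Rab5b and Rab5a 1.71, and Rab2 and Rab2b (-0.13) 1.53. The narrowest were Rab1 and Rab1b with 0.31 and the rabaptins with 0.46. A gap is the same under any scaling by 1 factor per array where both genes were measured, while the side of 0 is not: Rab1 (-0.36), Rab5a (-0.24) and Rab1b (-0.04), for example, were negative without scaling.

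The probes of Rab6b and Rab3a, the relatives of Rab6 and Rab3d, are shown. These isoforms had the widest gaps among the groups above with the 75th percentile. The Rab6b probe lies at chr9:103043359-103043418 (+) and the Rab3a probe at chr8:73687471-73687530 (+), in mm8.
Rab6b: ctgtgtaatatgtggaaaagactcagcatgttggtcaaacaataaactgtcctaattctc
Rab3a: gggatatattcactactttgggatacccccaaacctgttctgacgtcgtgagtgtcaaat

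**Figure D4:**
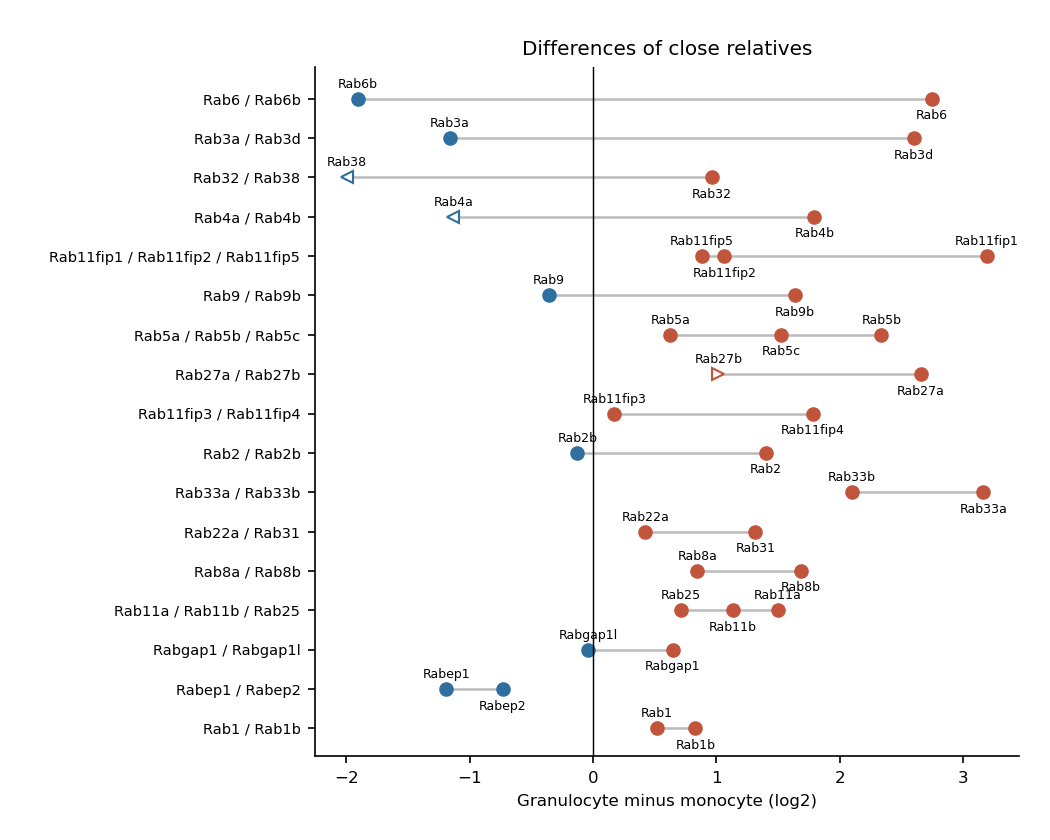
Granulocyte minus monocyte difference (log2) of the members of 17 groups of close relatives, ordered by the gap within the group. Red points lie above 0 and blue points below, and open triangles are lower bounds. Rab7 and Rab7b are not drawn, because the naming rule leaves Rab7b out. The gaps run from 4.65 for Rab6 and Rab6b (2.92 after normexp background correction) to 0.31 for Rab1 and Rab1b. Without scaling all points move left by 0.87, and Rab1, Rab1b and Rab5a are among those that then lie below 0.

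The subunits of the enzyme that lipidates Rabs lay on opposite sides. Rabggta, the alpha subunit of Rab geranylgeranyl transferase, had a level of 1.82 in granulocytes and 0.76 in monocytes, a difference of 1.06, with 1.19 by its other probe. Rabggtb, the catalytic beta subunit, had 0.70 in granulocytes and 2.37 in monocytes and was 3.18-fold higher in monocytes, with -1.53 on the log2 scale by its other probe above background. Rabac1, a prenylated Rab acceptor of the Golgi, gave 1.47 (6.44 in granulocytes and 4.97 in monocytes). Rabif, also called Mss4, which binds nucleotide-free Rabs, gave 1.24 (1.25 in granulocytes and 0.01 in monocytes). The probes of the transferase are shown because its subunits diverged: the Rabggta probe lies at chr14:54670233-54670292 (-) and the Rabggtb probe is spread over chr3:153846832-153846977 (-), in mm8.
Rabggta: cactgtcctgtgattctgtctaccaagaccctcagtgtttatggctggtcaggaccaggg
Rabggtb: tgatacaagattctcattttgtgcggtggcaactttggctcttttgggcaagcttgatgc

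Of 7 exchange factors and activating proteins named Rab, 0 were past 4-fold on either side, beside 8.57% (granulocyte) and 10.5% (monocyte) of all genes. On the granulocyte side 2 were past 2-fold, beside 29.0% of all genes. Their median was -0.03 (0.17 when the probes of a gene were averaged, -0.90 without scaling and -0.53 by spike-in controls). Rab3gap2, the noncatalytic subunit of the Rab3 activating complex, gave 1.37 (3.01 in granulocytes and 1.65 in monocytes), while its catalytic partner Rab3gap1 gave -0.03. Rabgef1, the Rab5 exchange factor also called Rabex-5, gave 1.16 (1.18 in granulocytes and 0.02 in monocytes). The probes of Rabgap1l did not agree in direction, with differences of -0.39, -0.12, -0.04 and 1.21, and those of Rab3il1 ran from -0.64 to 0.66.

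Among 8 effectors, Rab11fip1 was the only gene past 4-fold. Of all genes, 8.57% were past it on the granulocyte side and 10.5% on the monocyte side. Rab11fip1, also called the Rab coupling protein, links Rab11 to recycling vesicles. It had a level of 3.80 in granulocytes and 0.62 in monocytes, a difference of 3.19 (9.12-fold), with 3.24 by its other probe. Its relatives Rab11fip2 (1.06), Rab11fip5 (0.88) and Rab11fip3 (0.17, and -0.70 without scaling) had smaller differences. The effectors' median was 0.53 (-0.35 without scaling).

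Rab11fip4, a further binding partner of Rab11, was measured by 2 probes that gave different sizes. The probe above background on both arrays had 119.8 intensity units in granulocytes and 63.8 in monocytes, a difference of 1.78. The other had 196.1 in granulocytes and 10.1 in monocytes, where it was not well above background, so that its difference of 5.16 is a lower bound. They lie on the same strand, at chr11:79509997-79510056 (+) and chr11:79513411-79513470 (+) in mm8.
Rab11fip4, above background on both arrays: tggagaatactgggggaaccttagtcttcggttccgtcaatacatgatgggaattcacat
Rab11fip4, above background in granulocytes: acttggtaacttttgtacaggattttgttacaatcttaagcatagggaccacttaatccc

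A pair of effectors of early and late endosomes, Rabep1 and Rabepk, were past 2-fold on the monocyte side, beside 21.0% of all genes. Rabep1, or rabaptin-5, which works with Rabgef1 on Rab5, had a level of -0.61 in granulocytes and 0.58 in monocytes and was 2.28-fold higher in monocytes, with a difference of -0.93 by its other probe. Rabep2, its relative, gave -0.73. Rabepk, a Rab9 effector, had -0.88 in granulocytes and 0.71 in monocytes and was 3.02-fold higher in monocytes, with -1.89 by its other probe.

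Partners of the Rabs that carry other names were counted in 4 lists, to be read beside 8.57% of all genes past 4-fold on the granulocyte side and 10.5% on the monocyte side. Of 7 genes of the membrane cycle, 2 were past 4-fold on the granulocyte side and 1 on the monocyte side, and their median was 0.36 (-0.51 without scaling, -0.14 by spike-in controls and -0.10 after quantile normalisation). Zmpste24, a protease that trims prenylated proteins and is not particular to Rabs, had 5.29 in granulocytes and 1.91 in monocytes, a difference of 3.38. The Rab escort proteins, which present Rabs to the transferase, lay on opposite sides: Chm had 2.74 in granulocytes and 0.82 in monocytes (1.92), and Chml had -1.98 in granulocytes and 1.02 in monocytes (-3.00).

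Of 27 exchange factors, 5 were past 4-fold on the granulocyte side and 0 on the monocyte side, and their median was 1.19 (0.32 without scaling). Dennd3, an exchange factor for Rab12, had 2.70 in granulocytes and -2.59 in monocytes, a difference of 5.29. Dennd1c, which acts on Rab35, gave 2.91 (5.54 in granulocytes and 2.62 in monocytes). Rgp1, a subunit of the Rab6 exchange factor, gave 2.55 (5.03 in granulocytes and 2.47 in monocytes), and Dennd2d, which acts on Rab9, gave 2.34 (3.89 in granulocytes and 1.55 in monocytes).

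Of 31 activating proteins with a TBC domain, 5 were past 4-fold on the granulocyte side and 2 on the monocyte side, with a median of 0.67 (-0.20 without scaling). Tbc1d10c, also called carabin, had 5.22 in granulocytes and 0.97 in monocytes, a difference of 4.25. Tbc1d9 was not well above background in granulocytes (3.71 intensity units), had 385.9 in monocytes, and was at least 22.3-fold higher in monocytes. Tbc1d8 gave 2.36 and Tbc1d23 gave 2.24.

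Of 29 further effectors and Rab kinases, 6 were past 4-fold on the granulocyte side and 2 on the monocyte side, with a median of 0.74 (-0.13 without scaling). Lrrk2, a kinase that phosphorylates Rabs including Rab8 and Rab10, had 5.07 in granulocytes and 1.18 in monocytes, a difference of 3.89. Optn, which binds Rab8, gave 3.80 (1.96 in granulocytes and -1.85 in monocytes). The Rab27a effectors Sytl1 and Unc13d gave 2.87 (0.99 in granulocytes and -1.87 in monocytes) and 2.38 (4.89 in granulocytes and 2.51 in monocytes). Of the other Rab27 effectors listed, also named after their values were seen, Sytl3 gave 1.23, Exph5 gave 0.85, and Sytl2 was at least 1.52-fold higher in monocytes. Rph3al, of the same list, was at least 1.99-fold higher in granulocytes. All of these were dim, at 26.35 intensity units or less on either array. Sytl4, Sytl5, Mlph and Myrip were not found or not above background. The genes past 4-fold on the monocyte side, named after their values were seen, were the Rab7 effector Rilp, at least 4.32-fold, and Lrrk1, 4.13-fold. Rilp was dim, with 6.64 intensity units in granulocytes, where it was not well above background, and 74.8 in monocytes.

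**Figure D5:**
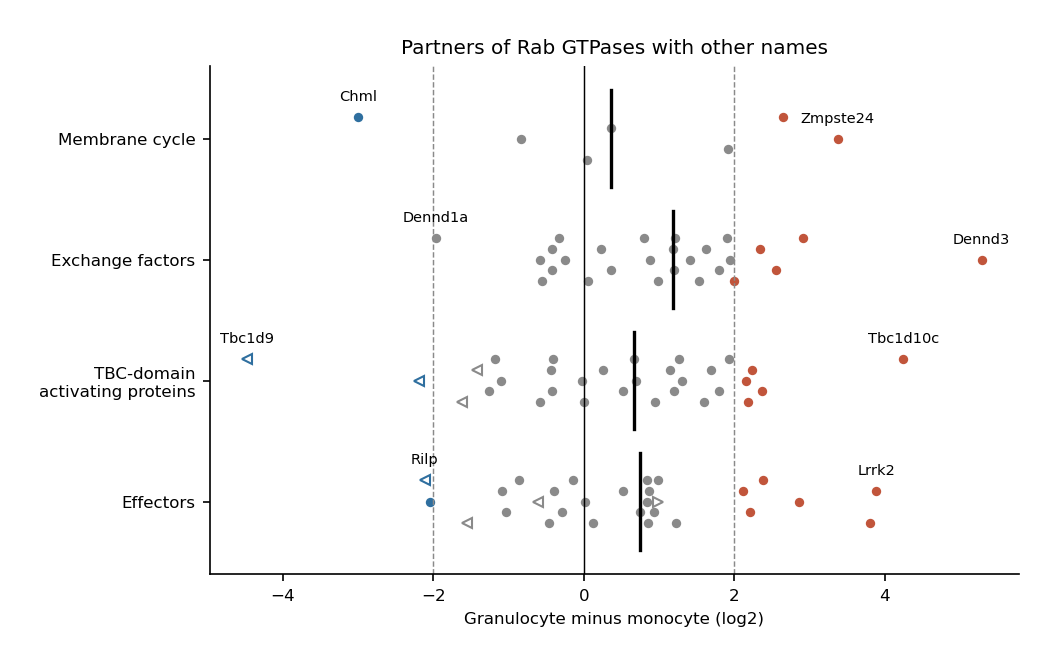
Granulocyte minus monocyte difference (log2) of the partners of Rabs with other names, in 4 lists, with 1 array per cell type. Black bars are medians, open triangles are lower bounds, dashed lines mark 4-fold, points past them are red on the granulocyte side and blue on the monocyte side, and the outermost gene of each side is named. The exchange factors have the median farthest above 0 (1.19). The other medians, 0.36, 0.67 and 0.74, lie below 0 without scaling.

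Promoter sequence was examined for 64 of the 76 genes, which RefSeq's table for GRCm38.p6 holds with 90 promoters of 250 bases before and 50 after the start. The median GC content was 61.7% for these promoters and 52.7% for all 32851, and the median number of CpG dinucleotides was 21.5 for these and 7.0 for all. A CACGTG box was present in 11.1% of the Rab promoters and 7.2% of all, the letters GAGGAA, read on both strands, in 20.0% of the Rab promoters and 28.3% of all, and TTGCNNAA, on both strands, in 5.6% of the Rab promoters and 10.8% of all. Among 12 promoters of 9 genes past 4-fold on the granulocyte side, 3 held CACGTG, 4 held GAGGAA and 0 held TTGCNNAA. The motifs were chosen with the differences known, and a match is a description only.

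The Rab20 promoter is shown because it holds both CACGTG and GAGGAA, with GAGGAA read as TTCCTC on the printed strand, and the matches, which do not overlap, are in capitals. It lies at chr8:11478591-11478890 (-) in GRCm38.p6.
Rab20: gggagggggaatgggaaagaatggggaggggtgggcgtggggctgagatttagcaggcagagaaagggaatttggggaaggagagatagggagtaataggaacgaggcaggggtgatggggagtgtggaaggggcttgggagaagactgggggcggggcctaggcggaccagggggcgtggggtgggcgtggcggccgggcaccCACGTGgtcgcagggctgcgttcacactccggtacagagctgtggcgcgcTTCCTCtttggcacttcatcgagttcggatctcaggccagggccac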

How the data were processed

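Total RNA of each sorted sample was amplified linearly and labelled with Cy3, per the labels' protocols, and hybridised to a mouse Agilent array. Per the file headers, Feature Extraction 10.5.1.1 gave the intensity of each spot, with background subtracted and on a linear scale. The authors' deposited table is on a log2 scale and equalled log2 of the processed signal with 1 constant added per array, -0.24 for granulocytes and -0.92 for monocytes (100.0% of probes within 0.01). The sources used here do not say what set them.

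Control spots and outlier spots (143 on the granulocyte array, 103 on the monocyte array) were left out. Each level is log2 of the processed signal minus log2 of the array's 75th percentile, with repeated spots averaged. Signals were well above background for 26256 probes (63.9%) in granulocytes and 28032 (68.2%) in monocytes, and the median SD of repeated spots was 0.07 on both arrays. A gene took its probe above background on most arrays, then the brightest. A dim gene has a bound against the higher of its own value and the array's lowest value well above background (-5.16 for granulocytes, -6.04 for monocytes). Of the 151 Rab probes, 124 were matched to RefSeq genes by accession and 27 by symbol. Of all probes, 8033 without a current name and 410 with several genes were left out of the gene counts.

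The genes, role lists, partner lists and markers were chosen with earlier results of these data known. Named with both levels are genes at least 2-fold apart, a fixed set of well-studied Rabs, and up to 4 genes of each partner list. A gene that this rule selects is not reported here, though counts and medians include it. The alternatives were no scaling, other scalings, normexp with limma 3.58.1 (offset 50), the deposited table, other filters, other probe rules and other sizes. The steps were tested on simulated data. Python 3.11.15, numpy 2.4.6, pandas 2.3.3 and matplotlib 3.10.9 were used.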

Additional observations from a re-analysis of the deposited data

How the results depend on the processing

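For 12 alternatives the counts of Rab genes were computed again. The count past 4-fold on the granulocyte side, 11, became 5 without scaling, 36 at 2-fold and 5 at 8-fold, and lay between 8 and 13 under the others. The count past 4-fold on the monocyte side, 2, became 9 without scaling, 6 by spike-in controls, 4 after quantile normalisation, 4 with the deposited table, 0 after normexp background correction, 0 with genes above background on both arrays only, 9 at 2-fold and 0 at 8-fold. Over all genes, 577 were past 4-fold on the granulocyte side and 2997 on the monocyte side without scaling, against 802 (granulocyte) and 2333 (monocyte) by spike-in controls, and 869 (granulocyte) and 889 (monocyte) after normexp. The median difference of the Rab genes, 0.99, became 0.12 without scaling, 0.64 after quantile normalisation and 0.50 by spike-in controls. The normexp setting adds 50 intensity units to every signal, which by its construction makes ratios of dim signals smaller. Its other effects were not tested. Scaling by 1 factor per array moves all differences together by its construction, which quantile normalisation does not. The 13 genes past 4-fold did not turn direction in any of 128 values, all from the same 2 arrays. They were picked for their size, and leaving out scaling moves a difference by 0.87. Scaling by 1 factor per array therefore could not turn them, and the count is no check of their direction. Of the 48 genes that are at least 2-fold apart or in the fixed set, Rab5a changed sign, to -0.24 without scaling, and Rab4a, to 0.15 after normexp. Among all 66 genes measured on both arrays, 11 changed sign without scaling, 3 by spike-in controls, 2 after quantile normalisation, 2 with the deposited table and 1 after normexp. Of 38 genes read by several probes on both arrays, 35 had probes of 1 sign. Dim genes limit the result, since a bound says only how far apart the processed signals are at least on the scale used. After normexp, Rab36 (-0.64), Rab38 (-0.15) and Rab39 (-0.70) had smaller differences than their bounds. The level behind a bound is also no ceiling for dim spots. In granulocytes a Rabggtb probe that was not well above background had -4.91, beside a lowest well-above level of -5.16. No paired analysis was possible because each cell type has 1 array.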

Other observations

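Some Rab genes carry array names that the naming rule leaves out. Rab7b, a Rab of late endosomes and the Golgi, was named through its accession and had a level of -1.61 in granulocytes and 3.45 in monocytes, 33.3-fold higher in monocytes, opposite in direction to Rab7. Its signals were 111.2 intensity units in granulocytes and 6784 in monocytes. Rab44, a large Rab with a calcium-binding domain, had 4.19 in granulocytes and 1.93 in monocytes, a difference of 2.27. Rab42 had -3.03 in granulocytes and -3.58 in monocytes, a difference of 0.56 that was -0.32 without scaling. These genes were set apart after their values were seen. No count of Rab genes above includes them, while the counts over all genes do.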
